A study of Mus musculus with 16 samples.

Results

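The 6 Dlx genes of the mouse, Dlx1 to Dlx6, were described in the peaks of total Jarid2, of Jarid2 dimethylated at its lysine K116 (Jarid2-K116me2) and of histone H3 trimethylated at K27 (H3K27me3). A peak was assigned to a gene when it overlapped the gene or lay within 5 kb of it, or when it lay between the genes of a pair. This assigned 6 peaks of Jarid2 out of 4992, and 10 of Jarid2-K116me2 out of 4502, to the 6 genes, out of 22350 protein-coding genes on chromosomes 1 to 19 and X, and no Dlx gene lacked a peak of either antibody. Jarid2 and Jarid2-K116me2 were mapped by ChIP-seq in E14, a line of mouse embryonic stem cells (ESC) grown in serum with LIF, with 1 sample per antibody. H3K27me3 was mapped in Jarid2 knockout (KO, Jarid2 -/-) ESC and in the same KO cells rescued with wild-type Jarid2 (WT rescue) or with Jarid2 whose lysine K116 was replaced by alanine (K116A rescue). Each of these lines was taken as undifferentiated ESC in serum with LIF and as embryoid bodies (EB), which were formed in hanging drops without LIF and taken at day 8, with 2 replicates each, or 12 samples. Both rescues carried Jarid2 on a bacterial artificial chromosome, and each genotype was represented by 1 line. The comparison of genotypes is thus a comparison of 3 lines that share the deletion. The 2 input samples are not analysed here.

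The Dlx genes encode homeodomain transcription factors related to Distal-less of the fly. In the mouse they lie in convergent pairs, in which the genes point towards each other and share the enhancers between and around them. Dlx1, Dlx2, Dlx5 and Dlx6 act in the ventral forebrain, where they drive the formation of GABAergic neurons, and in the pharyngeal arches, where Dlx5 and Dlx6 set the identity of the lower jaw. Dlx3 acts in placenta, epidermis, teeth and bone. None of these tissues exists in ESC cultures, where genes of this kind are typical targets of PRC2, the complex that methylates H3K27. Jarid2 is a subunit of PRC2 that helps to bring it to CpG-rich DNA, and is itself methylated by PRC2 at K116.

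In mm9, Dlx1 (ENSMUSG00000041911.3, chr2:71366170-71372038, plus strand) and Dlx2 (ENSMUSG00000023391.7, chr2:71381466-71384811, minus strand) lie 9427 bp apart. Dlx6 (ENSMUSG00000029754.7, chr6:6813334-6818568, plus strand) and Dlx5 (ENSMUSG00000029755.9, chr6:6827805-6832085, minus strand) lie 9236 bp apart. Dlx3 (ENSMUSG00000001510.7, chr11:94981403-94986610, plus strand) and Dlx4 (ENSMUSG00000020871.7, chr11:95001770-95007577, minus strand) lie 15159 bp apart. All 6 start sites lay under a peak of both antibodies. The 150 bases before the start sites of Dlx1 to Dlx5, which the annotation places in no exon, are printed from the mm9 reference to show the DNA under these peaks, 5′ to 3′ on the strand of the gene and with each CG in capitals.
Dlx1 upstream (chr2:71366020-71366169, plus strand): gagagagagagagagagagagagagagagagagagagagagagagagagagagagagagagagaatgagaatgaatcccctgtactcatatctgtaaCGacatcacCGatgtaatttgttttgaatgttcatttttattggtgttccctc
Dlx2 upstream (chr2:71384812-71384961, minus strand): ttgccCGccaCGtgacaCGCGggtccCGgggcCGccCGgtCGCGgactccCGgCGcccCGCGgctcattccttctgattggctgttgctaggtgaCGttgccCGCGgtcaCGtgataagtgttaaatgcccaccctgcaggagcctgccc
Dlx5 upstream (chr6:6832086-6832235, minus strand): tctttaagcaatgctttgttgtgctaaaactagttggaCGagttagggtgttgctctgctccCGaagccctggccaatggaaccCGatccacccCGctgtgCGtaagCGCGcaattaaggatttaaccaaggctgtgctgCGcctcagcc
Dlx3 upstream (chr11:94981253-94981402, plus strand): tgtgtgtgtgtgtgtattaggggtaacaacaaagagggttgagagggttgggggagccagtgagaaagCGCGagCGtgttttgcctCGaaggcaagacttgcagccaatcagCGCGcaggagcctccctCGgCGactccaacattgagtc
Dlx4 upstream (chr11:95007578-95007727, minus strand): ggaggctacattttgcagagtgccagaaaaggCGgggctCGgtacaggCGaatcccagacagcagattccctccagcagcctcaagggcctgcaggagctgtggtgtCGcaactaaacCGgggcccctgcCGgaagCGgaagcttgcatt
The number of CG in these stretches was 17 for Dlx2, 8 for Dlx3 and Dlx5, 7 for Dlx4 and 2 for Dlx1. The median over 22347 protein-coding genes with such a stretch was 6. As many CG as before Dlx2 were found before 13.1% of these genes, and as many as before Dlx1 before 76.0%. Thus the 150 bases before these start sites ranged from CpG-poor, with a run of GA repeats before Dlx1, to CpG-rich. They do not describe the DNA after the start sites. At Dlx1, the 500 bases before the start site held 11 CpG sites and the 500 bases from it onwards 20.

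The Jarid2 peaks at the Dlx genes were among the widest of the list where they spanned a pair. A single Jarid2 peak of 21821 bp (chr2:71363965-71385785) covered both Dlx1 and Dlx2 and everything between them. It ranked 17th in width, and 0.341% of the 4992 peaks were as wide. At Dlx5 and Dlx6, a pair of peaks of 14239 bp (chr6:6803811-6818049) and 15703 bp (chr6:6818052-6833754) met with a gap of 2 bp, so that 100% of the bases between the genes were covered. The median width of all Jarid2 peaks was 1877 bp, and that of the peaks at the highest common score was 5203 bp. Dlx3 and Dlx4 each had a peak of their own instead, of 4599 bp (chr11:94980374-94984972) and 6142 bp (chr11:95002450-95008591), and 0% of the bases between these genes was covered. Another, weaker peak of 3536 bp (chr11:95009994-95013529) lay upstream of Dlx4 in the noncoding gene A730090H04Rik.

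The score of a peak, which is the log10 of its p-value times minus 10 as the peak caller gave it, was 3100 for 5 of the 6 Jarid2 peaks. This is the value at which the scores of the strongest peaks pile up, and 15.1% of all Jarid2 peaks had it or more. The score therefore does not order the 5 peaks. The peak upstream of Dlx4 scored 444.44, below the median of 503.0 over all Jarid2 peaks. A score depends on the number of reads, each antibody was used on 1 sample, and no value from these lists has a replicate error. A Jarid2 peak lay within 5 kb of 18.1% of all protein-coding genes, a Jarid2-K116me2 peak within 5 kb of 16% and peaks of both antibodies within 5 kb of 15.8%. A top score of 3100 or more for both antibodies was reached by 3.45% of all genes and by 6 of 6 Dlx genes. Of these, Dlx1 and Dlx2, and likewise Dlx5 and Dlx6, shared a peak. The Dlx genes were chosen with earlier results of these data known.

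**Figure D1:**
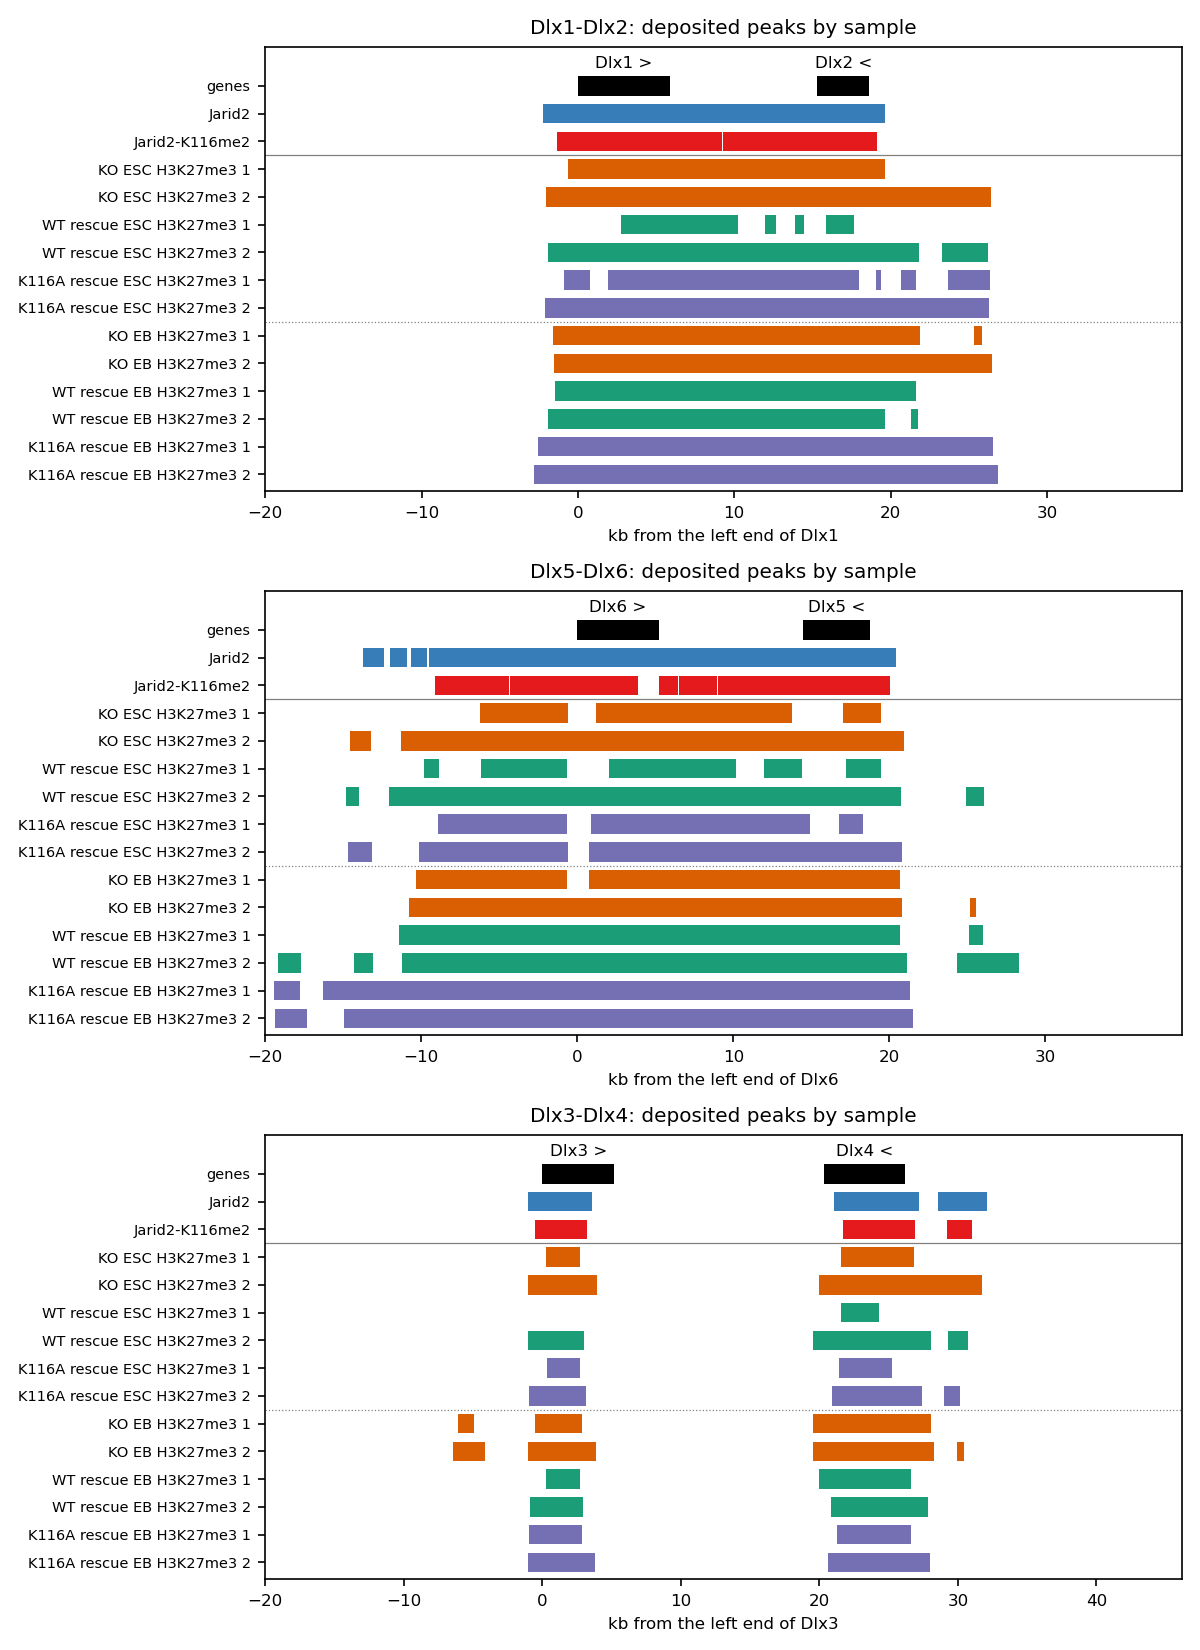
Deposited peaks (bars) of Jarid2, Jarid2-K116me2 and the 12 H3K27me3 samples at the 3 Dlx pairs, by distance in kb from the left end of the left gene, with genes in black and arrowheads for their direction. Peaks run across the DNA between the genes at Dlx1-Dlx2 and Dlx5-Dlx6, broken up most in the WT rescue ESC replicate 1, while Dlx3 and Dlx4 carry separate peaks.

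Jarid2-K116me2 covered the same loci with more and narrower peaks. Each of its 10 peaks lay within the Jarid2 peaks for 100% of its length, and both antibodies shared 6 regions at the Dlx genes, of 3896 in the whole genome. At Dlx1 and Dlx2 the single Jarid2 peak was matched by a pair of Jarid2-K116me2 peaks of 10577 bp and 9854 bp, 13 bp apart, which covered 93.6% of it. At Dlx5 and Dlx6, 5 peaks of 4686, 8232, 1253, 2422 and 11064 bp followed each other, and the gap of 1336 bp between the second and the third lay at the 3′ end of Dlx6. The other gaps at this pair were 70, 31 and 53 bp long. Their scores from left to right were 2507.26, 3100, 207.11, 826.86 and 3100, so that the lowest scores lay between the genes. Regions with more than 1 Jarid2-K116me2 peak made up 9.24% of the common regions. The median width of the common regions was 2317 bp, far below that of the Dlx regions with several such peaks. The share among regions of like width was not determined. At Dlx3 and Dlx4, Jarid2-K116me2 peaks of 3686 bp and 5220 bp lay inside the Jarid2 peaks, which they covered for 80.1% and 85.0%. For comparison, the summed width of the Jarid2-K116me2 peaks in a common region was set against that of its Jarid2 peaks. The median of this width ratio was 82.3% (quartiles 71.3% and 90.9%). At the Dlx regions, where Jarid2-K116me2 peaks lay inside the Jarid2 peaks, the ratio equals the share covered.

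The DNA at 2 of the short gaps between neighbouring Jarid2-K116me2 peaks, chosen after their sequences were seen because they hold repeats, is printed with 40 bases on either side and the gap in capitals.
Dlx1 to Dlx2 gap (chr2:71375369-71375461, plus strand): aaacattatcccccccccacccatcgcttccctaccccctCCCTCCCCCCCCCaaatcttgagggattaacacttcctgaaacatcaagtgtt
Dlx6 upstream gap (chr6:6808885-6809034, plus strand): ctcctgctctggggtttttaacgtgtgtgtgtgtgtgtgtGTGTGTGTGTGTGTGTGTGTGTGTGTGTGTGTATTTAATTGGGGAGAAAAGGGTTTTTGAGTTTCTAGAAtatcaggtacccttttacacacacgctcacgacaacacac
The gap between Dlx1 and Dlx2 lay in a run of C and T, and the one upstream of Dlx6 began in a GT repeat. The gaps of 31 and 53 bp, not printed, did not lie in such a repeat. The gap of 2 bp between the Jarid2 peaks at Dlx6 lay in an exon of Dlx6, in a stretch of 82 bases of which 100% were A or G. How well reads can be placed in such repeats was not tested.

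The region upstream of Dlx4 was the only Dlx region under the score ceiling, where scores can be compared. It scored 390.43 for Jarid2-K116me2 against 444.44 for Jarid2, a log2 ratio of -0.19 without replicates. Over the 2992 common regions under the ceiling, the median log2 ratio was 0.03 (quartiles -0.31 and 0.31). The region upstream of Dlx4 thus lay within the middle range of all regions. Jarid2-K116me2 covered 49.7% of it, less than the lower quartile of the width ratio given above for the common regions.

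The wide Jarid2 peaks held many CpG sites but were not dense in them. The peak over Dlx1 and Dlx2 held 819 CpG sites, a number that 0.300% of all Jarid2 peaks reached. Its density was 3.75 per 100 bases, under the median of 4.49 over all Jarid2 peaks, and 68.6% of the peaks were as dense. The peaks at Dlx5 and Dlx6 held 367 and 375 sites at 2.58 and 2.39 per 100 bases, and those at Dlx3 and Dlx4 191 and 196 sites at 4.15 and 3.19 per 100 bases. Within 30 kb of the pairs, the density under Jarid2 peaks was higher than outside them, with 3.75 against 1.17 at Dlx1-Dlx2, 2.40 against 0.854 at Dlx5-Dlx6 and 3.31 against 1.30 at Dlx3-Dlx4. Between the genes it was 2.94 for Dlx1-Dlx2 and 1.66 for Dlx5-Dlx6, both under peaks, and 1.47 for Dlx3-Dlx4, which was free of peaks. Its middle is printed for comparison with the stretches before the start sites, with CG in capitals.
Dlx3 to Dlx4, middle (chr11:94994115-94994264, plus strand): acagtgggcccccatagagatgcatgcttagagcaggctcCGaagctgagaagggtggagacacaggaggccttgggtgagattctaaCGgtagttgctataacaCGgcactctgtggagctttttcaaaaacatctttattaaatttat
It held 3 CG in 150 bases. These densities describe 3 loci of 1 genome, and no test was made. The letters TAATTA, a core motif of homeodomain proteins that reads the same on both strands, occurred 13 times in the peak over Dlx1 and Dlx2 and 9 times in the peaks at Dlx5 and Dlx6 together. The motif was absent from the peaks over Dlx3 and over Dlx4 and occurred 2 times in the peak upstream of Dlx4. At least 1 copy was found in 27.2% of all Jarid2 peaks, which are mostly far shorter. As many copies per kb as in the peak over Dlx1 and Dlx2 were found in 8.81% of all Jarid2 peaks. For the left and right peaks at Dlx5 and Dlx6 this share was 24.2% and 15.9%.

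**Figure D2:**
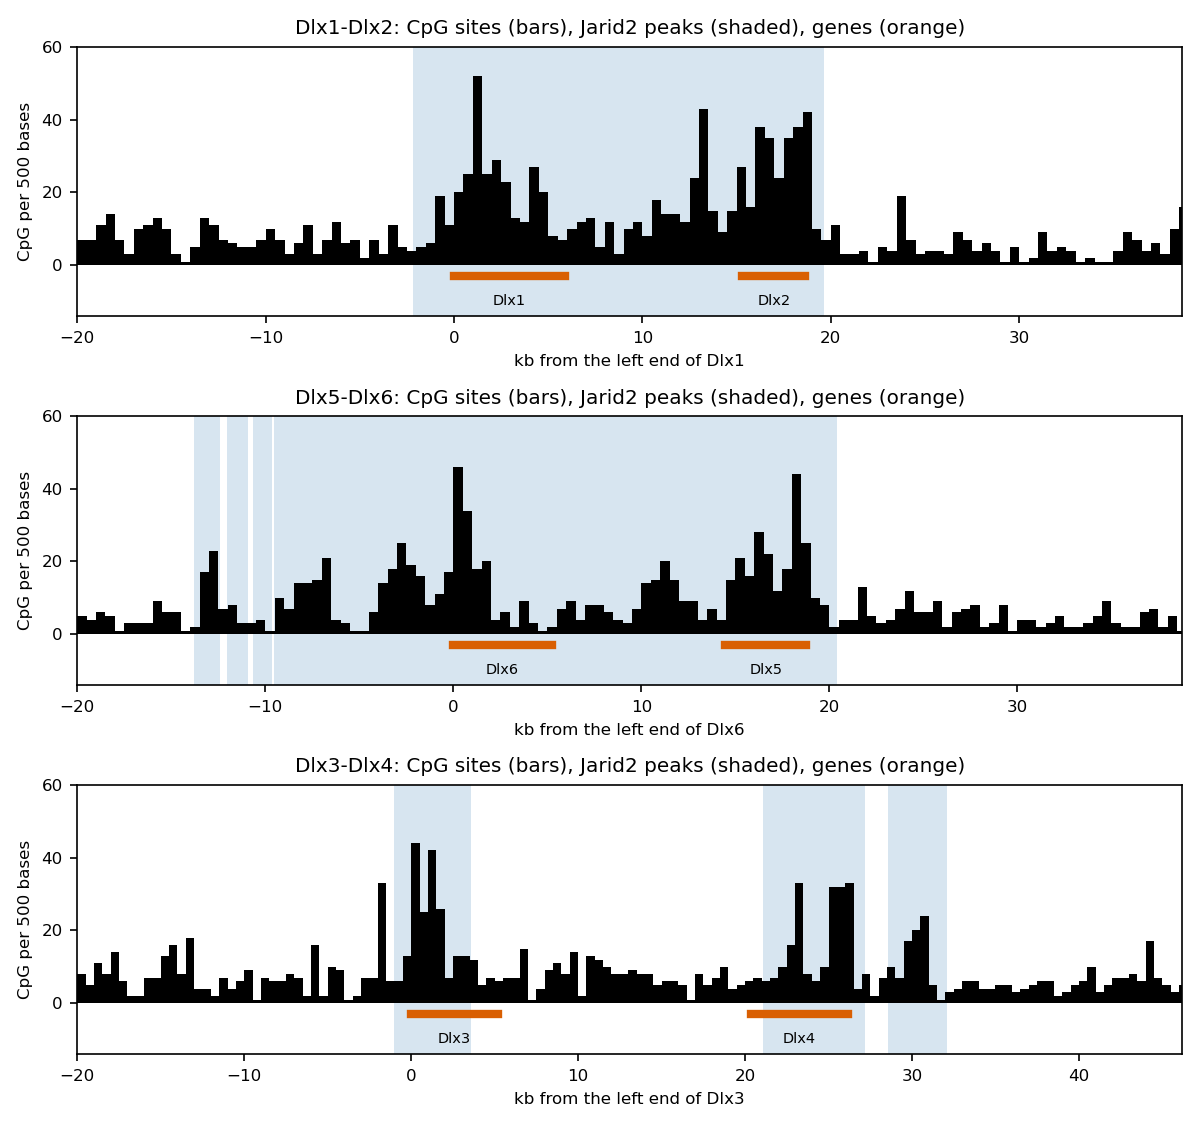
CpG sites per 500 bases (bars) along the 3 Dlx pairs by distance in kb from the left end of the left gene, with Jarid2 peaks shaded and genes in orange. The highest bars lie in the genes, with 52, 46 and 44 sites at the 3 pairs, and further clusters lie outside them, such as 43 between Dlx1 and Dlx2 and 33 before Dlx3.

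**Figure D3:**
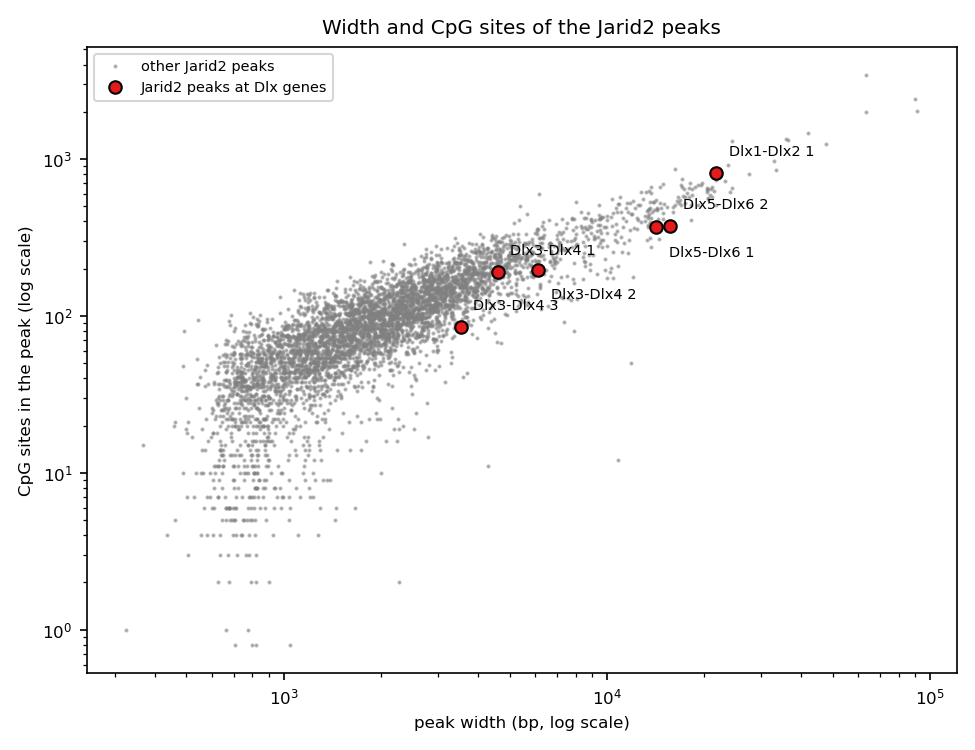
Width in bp against the number of CpG sites for all 4992 Jarid2 peaks (grey, peaks without a site drawn at 0.8) and the 6 peaks at Dlx genes (red), both axes on a log scale. The Dlx1-Dlx2 peak, 21821 bp wide with 819 sites, lies among the widest of the list.

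Neighbouring protein-coding genes mostly had no peak. Gm1631, Shfm1, Acn9, Itga3 and Tac4, the nearest such genes on the other sides, had no Jarid2 or Jarid2-K116me2 peak within 5 kb. Metap1d, which ends 2918 bp before Dlx1, shared the wide peak of that pair. The nearest further Jarid2 peaks lay 408911 and 433593 bp from Dlx1 and Dlx2. Next to Dlx6, outside the 5 kb, 3 weak Jarid2 peaks with scores of 133.34, 109.8 and 108.01 lay 9637 to 12398 bp from the gene, none of them overlapped by Jarid2-K116me2.

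Other genes of the tissues in which Dlx genes act were mostly targets too. Of 20 genes of forebrain GABAergic neurons and their progenitors, 19 had a Jarid2 peak and 19 a Jarid2-K116me2 peak, and 16 reached the top score with both. Among them were Isl1, a regulator of striatal and motor neurons, and Gsx1 and Gsx2, which act upstream of Dlx genes in the ventral forebrain. Sst, which encodes the peptide somatostatin, had no peak. Of 25 genes of pharyngeal arch, limb and skeleton, 24 had a Jarid2 peak, 22 a Jarid2-K116me2 peak and 17 the top score with both. Hand1 and Hand2, Msx1 and Bmp2 were among the latter. Trp63, a regulator of epidermis, had no peak, and Edn1 and Ednra, the endothelin ligand and receptor that act upstream of Dlx5 and Dlx6 in the lower jaw, had weak Jarid2 peaks (243.79 and 132.21) without Jarid2-K116me2. Of 16 genes active in ESC, 15 had no peak of either antibody, among them Pou5f1, Nanog and Sox2. Esrrb had a peak of each antibody, with scores of 2868.23 for Jarid2 and 3072.68 for Jarid2-K116me2. The share of all protein-coding genes with a Jarid2 peak was 18.1%, as given above. The lists were chosen with earlier results of these data known, so setting them beside this share is a description and not a test.

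H3K27me3 was measured as cover, the percent of the bases of a gene and its 5 kb on either side that lay under a broad peak. The lists of the 12 samples differed in length, from 1437 to 9799 peaks in ESC and from 6771 to 14101 in EB, and replicate 2 had the longer list in all 6 groups. The WT rescue ESC replicate 1 stood apart with the shortest list, 1437 peaks over 2.24 Mb, against 22.7 Mb in its replicate 2. The differences between groups are given with and without it. The read depth behind each list, which the paper reports, was not used here. By those counts, the WT rescue ESC replicate 1 had the most reads of all ESC samples after removal of duplicates, despite its short list. The study's methods call the replicates 2 the better samples in quality and take the peaks for its own comparison of ESC and EB from them. The level of Jarid2 in these lines was not analysed here.

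All Dlx genes carried H3K27me3. Dlx1, Dlx2, Dlx4, Dlx5 and Dlx6 had cover in all 12 samples, as had 3.47% of all protein-coding genes, and Dlx3 had it in 11. The order of the genes was nearly the same in every sample. Dlx6 was highest or tied in 11 of 12 samples, Dlx3 was lowest in 12 and Dlx4 second lowest in 12. In ESC, the mean cover was 91.9% ± 7.03 (SD, n = 6) for Dlx6, 74.9% ± 29.1 for Dlx2, 71.8% ± 13.4 for Dlx1, 62.03% ± 19.5 for Dlx5, 42.7% ± 21.5 for Dlx4 and 19.6% ± 11.8 for Dlx3. In this order, the ranges of mean ± SD of neighbouring genes overlapped. The 6 samples of a stage are 3 lines with 2 replicates each, and all genes were measured in the same samples. Overlap of these ranges therefore does not test the order of the genes within samples. In EB, the mean cover was 98.5% ± 3.64 (SD, n = 6) for Dlx6, 90.8% ± 11.1 for Dlx2, 80.9% ± 3.59 for Dlx1, 80.9% ± 2.46 for Dlx5, 46.5% ± 8.65 for Dlx4 and 26.5% ± 7.57 for Dlx3. There, the range of mean ± SD of Dlx4 overlapped neither those of the 4 genes above it nor that of Dlx3, while the means of Dlx1 and Dlx5 could not be told apart. Ranked within each sample, Dlx6 was matched or exceeded by at most 0.631% of all genes, and Dlx1, Dlx2 and Dlx5 by at most 1.23%. Dlx4 was matched or exceeded by 0.609% to 2.39% of all genes, and Dlx3 by 2.22% to 5.09% in the 11 samples in which it had cover.

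Like the Jarid2 peaks, the H3K27me3 domains spanned the DNA between the genes at Dlx1-Dlx2 and Dlx5-Dlx6 but not at Dlx3-Dlx4. The bases between Dlx1 and Dlx2 were covered to 100% in every sample but the WT rescue ESC replicate 1, with 60.4%. Between Dlx6 and Dlx5 the cover was 100% in all but that sample, with 80.3%, and the KO ESC replicate 1, with 92.1%. Between Dlx3 and Dlx4 it was at most 5.38%. The Jarid2 peaks are those of E14, while H3K27me3 was mapped in the KO and rescue lines, of which the KO has no Jarid2. The Jarid2 peak over Dlx1 and Dlx2 lay under H3K27me3 for 95.8% of its length in the median ESC sample and for 97.9% in the median EB sample. In the Dlx5-Dlx6 pair these values were 87.8% and 100% for the left and 87.2% and 100% for the right peak. The lowest value at the Dlx1-Dlx2 peak was 48.4%, in the WT rescue ESC replicate 1. Of all Jarid2 peaks, 14.2% to 80.9% touched an H3K27me3 peak, depending on the sample. At the weaker region upstream of Dlx4, H3K27me3 covered 16.0% in the median ESC sample and up to 89.1% in the KO ESC replicate 2, but at most 14.1% in EB. The start site of Dlx6 was the one most often outside H3K27me3 peaks, in 5 of 12 samples (KO replicate 1, WT rescue replicate 1 and both K116A rescue replicates in ESC, and KO replicate 1 in EB). In each of these 5 samples, the start site lay in a gap between H3K27me3 peaks on either side.

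The change of H3K27me3 from ESC to EB was compared at each gene. The cover of Dlx5 was 47.0% and 80.3% in KO, 38.1% and 79.0% in WT rescue, and 48.5% and 79.3% in K116A rescue ESC (replicates 1 and 2). In EB it was 78.6% and 79.2% in KO, 78.7% and 81.4% in WT rescue, and 83.0% and 84.4% in K116A rescue. EB values lay close together, near or above the highest values of ESC, and the replicates 1 of ESC lay far below. The difference was 18.9 points, with an exact permutation p of 0.041 (two-sided, 6 EB against 6 ESC samples, 924 arrangements) and an adjusted p of 0.170 over the 8069 genes with cover in at least 2 samples.

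Dlx2 had 70.0% and 100% in KO, 23.1% and 89.2% in WT rescue, and 67.2% and 100% in K116A rescue ESC. In EB, the values were 86.6% and 100%, 84.9% and 73.3%, and 100% and 100% in the same order. The stages overlapped, and the difference of 15.9 points did not pass (exact permutation test, adjusted p = 0.456). Dlx1 had 72.6% and 81.3%, 47.1% and 80.5%, and 67.2% and 82.0% in ESC. In EB it had 78.6% and 78.3%, 77.5% and 80.6%, and 84.6% and 86.0%, of which the K116A rescue EB were the highest of the 12 samples. The difference was 9.16 points (exact permutation test, adjusted p = 0.283).

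Dlx6 had 88.0% and 100%, 82.1% and 100%, and 89.7% and 91.4% in ESC, again for KO, WT rescue and K116A rescue. It was fully covered in all EB samples but the KO EB replicate 1, with 91.1%. The difference was 6.64 points (exact permutation test, adjusted p = 0.278), with little room above the ESC values. Dlx3 had 16.1% and 33.0%, 0% and 26.4%, and 15.5% and 26.96% in ESC. In EB it had 22.3% and 37.8%, 16.1% and 25.2%, and 25.4% and 32.0%, a difference of 6.82 points (exact permutation test, adjusted p = 0.506). Dlx4 had 33.5% and 71.0%, 17.2% and 62.3%, and 24.0% and 48.0% in ESC. In EB it had 53.7% and 58.4%, 42.3% and 44.4%, and 33.9% and 46.5%, so that EB lay inside the range of ESC (difference of 3.89 points, exact permutation test, adjusted p = 0.787).

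**Figure D4:**
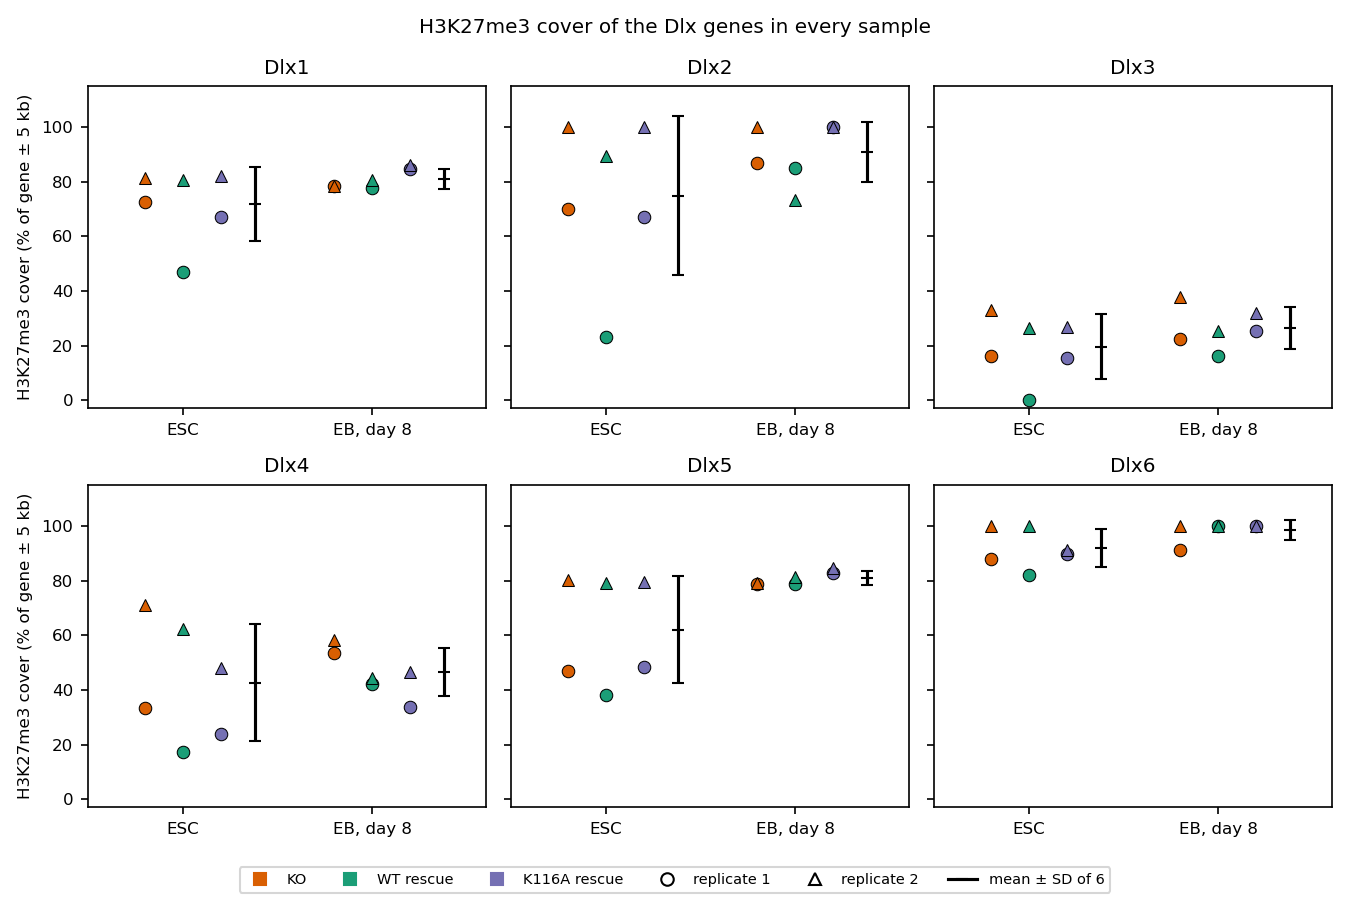
H3K27me3 cover (percent of the gene and 5 kb on either side) of the 6 Dlx genes in each of the 12 samples, by stage, line (colour) and replicate (circle for 1, triangle for 2), with the mean and SD of the 6 samples of a stage. In ESC the replicates 1 lie below the replicates 2, and in EB the values lie closer together.

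None of the 6 Dlx genes passed the test between EB and ESC at an adjusted p of 0.05. Across the 8069 genes tested, 6.37% had a higher and 0.0496% a lower cover in EB, and the median difference was 1.71 points. The median over the 6 Dlx genes was 7.99 points. EB lists were on average longer, and EB hold several cell types, so that a change within cells and a change in their proportions cannot be told apart. The replicate number moved with the result. Among the replicates 1, EB exceeded ESC by 18.0 points for Dlx1, 37.1 for Dlx2, 10.8 for Dlx3, 18.4 for Dlx4, 35.6 for Dlx5 and 10.4 for Dlx6, and for each gene all 3 EB samples lay above all 3 ESC samples. Among the replicates 2, the differences were 0.38, -5.31, 2.89, -10.7, 2.14 and 2.87 points in the same order, and the stages overlapped for all 6 genes. Within 1 replicate number, 3 against 3 samples cannot reach p = 0.05 in an exact permutation test. Without the WT rescue ESC replicate 1, the differences were 4.23 points for Dlx1, 5.54 for Dlx2, 2.89 for Dlx3, -1.21 for Dlx4, 14.1 for Dlx5 and 4.70 for Dlx6, with adjusted p from 0.191 to 0.947 by exact permutation test. With the replicate number as a block, 867 genes passed in place of 518, and again no Dlx gene, the lowest adjusted p being 0.0859 for Dlx5. No gene at all passed with the line as a block, with no filter on low values, within 2 kb of start sites, or without any 1 of 5 of the 6 ESC samples.

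**Figure D5:**
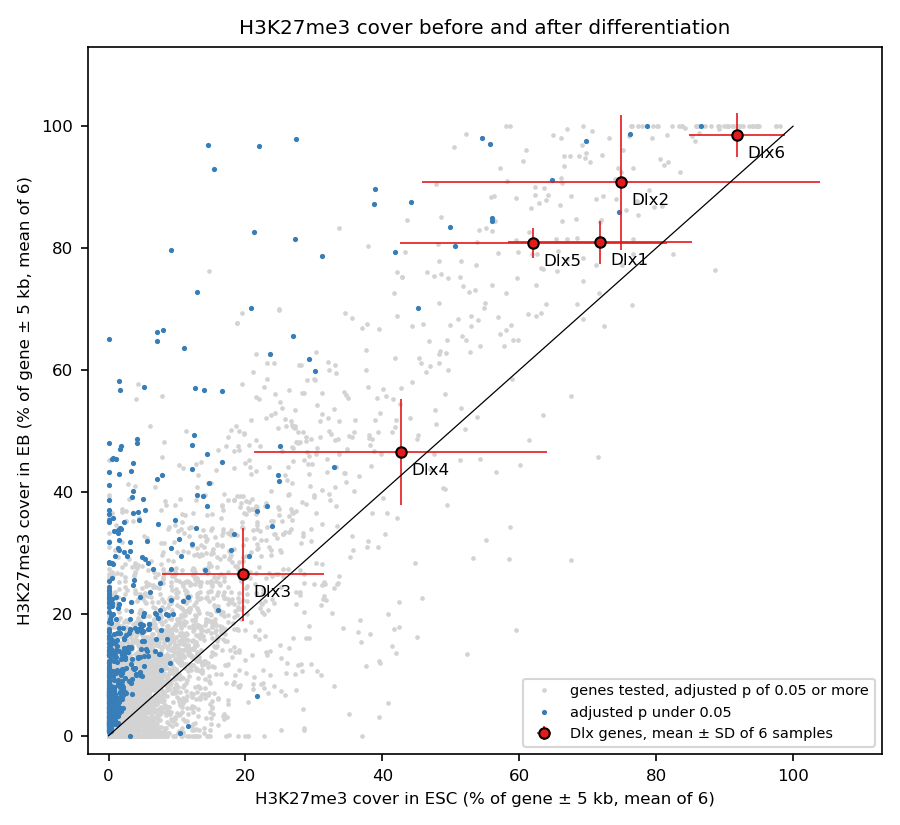
Mean H3K27me3 cover (percent of the gene and 5 kb on either side) in 6 ESC against 6 EB samples for the genes tested (grey, blue for an adjusted p under 0.05 by exact permutation test) and the Dlx genes (red, SD of 6 samples as bars), with the line of equal cover. The 6 Dlx genes lie above the line, and none of them passed the test.

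The genotypes were compared to ask whether loss of Jarid2 or of its lysine K116 changed H3K27me3 at the Dlx genes. With stage kept apart, the mean cover of the 4 WT rescue samples minus that of the 8 KO and K116A rescue samples was -22.8 points for Dlx2, where WT rescue had 67.6% and the others 90.5%. This was the largest difference of the 6 genes, in a contrast in which the median over all genes was -1.44 points, but it did not pass (p = 0.071 and adjusted p = 0.724, exact permutation test within stage, 225 arrangements). The differences were -7.41 points for Dlx1, -9.21 for Dlx3, -4.56 for Dlx4, -3.26 for Dlx5 and 0.51 for Dlx6, with adjusted p from 0.724 to 0.970 in the same test. Across all genes, 0% were called higher and 0% lower in WT rescue by this test, with 316 of 8069 genes at an unadjusted p under 0.05. The smallest p that 225 arrangements allow is 0.00444, so no gene could pass the adjustment over 8069 genes alone. Many genes would have had to reach that p together, so the 0% cannot be read as no difference between lines. In limma, which has no such limit, 0 genes were called as well. Without the WT rescue ESC replicate 1, the differences were -8.00 points for Dlx2, -3.58 for Dlx3, 0.70 for Dlx1, 3.56 for Dlx4, 7.14 for Dlx5 and 4.98 for Dlx6, with an adjusted p of 0.987 for each by exact permutation test.

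Within EB, the K116A rescue had the widest H3K27me3 domains at Dlx1-Dlx2 and Dlx5-Dlx6. At Dlx5-Dlx6, a single domain measured 37647 and 36511 bp in the K116A rescue replicates 1 and 2, against 32156 and 32348 bp in WT rescue and 19982 and 31545 bp in KO. At Dlx1-Dlx2, the widest domain measured 29093 and 29638 bp in K116A rescue, 23063 and 21548 bp in WT rescue, and 23458 and 28065 bp in KO. Both K116A rescue samples thus lay above the other 4 EB samples at both pairs, with 2 samples per group, for which an exact permutation test cannot go below p = 0.333. Relative to its own list, the domain did not stand out. At Dlx1-Dlx2, 0.620% and 0.661% of the peaks were as wide in K116A rescue EB, against 0.468% to 0.535% in the other 4 EB samples. At Dlx5-Dlx6, these shares were 0.295% and 0.335% in K116A rescue, 0.161% and 0.143% in WT rescue and 0.839% and 0.326% in KO. At Dlx3-Dlx4 the widest domain, over Dlx4, did not follow this order, with 5363 and 7353 bp in K116A rescue and 8485 and 8740 bp in KO. In ESC, the widest domain at Dlx5-Dlx6 measured 13985 and 20077 bp in K116A rescue, 12530 and 32213 bp in KO, and 8177 and 32816 bp in WT rescue, so that the order of the lines differed between the replicates. The difference of the ESC to EB change between lines was tested for each gene (KO and K116A rescue minus WT rescue, line labels permuted within stage). It ranged from -10.5 points for Dlx2 to 0.44 points for Dlx4, with adjusted p of 1 for all 6 genes by exact permutation test. This test also had 225 arrangements, with a smallest p of 0.00444, so a gene could not pass the adjustment alone.

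In the gene lists, the same test was applied. Of 20 genes of forebrain GABAergic neurons 0 passed between EB and ESC, and of 23 tested genes of arch, limb and skeleton 0 passed, with median differences of 7.18 and 4.89 points. The median cover in ESC was 19.1% and 28.5% for these lists, against 66.9% for the 6 Dlx genes and 1.21% for all genes tested. The lists and the Dlx genes were chosen with earlier results of these data known. Of the 16 genes active in ESC, 4 had enough cover to be tested. Klf4, a pluripotency factor, rose from 0% in ESC to 35.2% in EB (exact permutation test, adjusted p = 0.0337). All 518 genes called shared this adjusted p, the smallest of the test, so it does not single out Klf4. The call was lost under each of the alternatives named above in which no gene passed. Pou5f1 and Nanog had no cover in ESC. Among the neighbours, Metap1d had 4.19% in ESC and 8.86% in EB, and the other 5 at most 4.59% in either stage.

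The genes whose cover across the 12 samples was most like the mean of the 6 Dlx genes were found by the root mean square difference. They were Foxf2, a forkhead factor of palate and gut mesenchyme, with 4.58 points, Gm6320 with 5.30, Nr2e1, a nuclear receptor of neural stem cells, with 5.53, Cdkn2c, an inhibitor of cell cycle kinases, with 7.65, and Nxph4, a neurexophilin, with 7.71 points. All 5 also had peaks of both antibodies, with top Jarid2 scores of 3100 for the first 4 and 2913.69 for Nxph4. The mean of the 6 Dlx genes was lowest in the WT rescue ESC replicate 1 with 34.6% and highest in the KO ESC replicate 2 with 77.6%.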

How the data were processed

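Jarid2 and Jarid2-K116me2 ChIP-seq (1 sample each) and H3K27me3 ChIP-seq (12 samples) were analysed from the deposited peak lists on mm9. Per the study's methods and the submitters' processing notes, which name Bowtie2 2.1.0, MACS 1.4.2, MACS2 2.0.10 and HOMER 3.17, the authors mapped single reads, called peaks against input, and 1 list per sample was deposited. The deposited score of a Jarid2 peak is the log10 of its p-value times minus 10, as the caller of the authors wrote it. The deposited score of an H3K27me3 peak has no stated scale, so its peaks were used by position. No file gives reads, fold enrichments or q-values, so depth per peak and its counting error are unknown. Lists differ in length, and cover was not adjusted for it.

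Genes were those of GENCODE for NCBIM37, the same build. The members and gene lists were chosen with earlier results of these data known. Of the lists, every symbol matched, Tfap2a under its older name Tcfap2a. Peaks were assigned to genes within 5 kb. Overlap needed 1 bp. Cover of genes was tested where at least 2 samples had any. EB and ESC were compared by an exact permutation test (6 against 6, 924 arrangements, smallest p 0.00216), and WT rescue with KO and K116A rescue by permutation within stage (225 arrangements, smallest p 0.00444), with Benjamini-Hochberg adjustment over 8069 genes. Per the study, the 2 replicates were independent biological samples. The test was tested on simulated data of 2000 genes, where it called 100 of 100 differences of 30 points, 30 of 100 of 12 points and 4 of 1800 unchanged genes. The simulated samples were independent and spread less than the cover of each Dlx gene in ESC, where the SD reached 29.1 points for Dlx2. These rates therefore do not give the power of the test on the real lists. Named were the 6 members, their nearest protein-coding neighbours, up to 4 genes per list with the highest Jarid2 score (ties in list order), and the 5 genes with the most similar cover. Genes named after their values were seen were Sst, Trp63, Edn1, Ednra, Klf4, Pou5f1, Nanog and Sox2. Alternatives were other windows, filters, peak numbers and blocks, limma 3.58.1, and each sample left out. Sequences and CpG sites were read from the NCBIM37 genome. Python 3.11.15, numpy 2.4.6 and pandas 2.3.3 were used. Input samples were not analysed here. The stretch before the start site of 1 member and 1 gene of a list are not reported here.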

Additional observations from a re-analysis of the deposited data

Results flagged for a closer look

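The H3K27me3 cover of Dlx6 in the KO EB replicate 1 was 91.1%, while the other 5 EB samples were at 100%. The gap of this sample to the others made up the whole range of the group. Of 12 groups of 6 samples examined in this way (6 genes, ESC and EB), this was the only one. Since the other 5 values are tied at the highest possible cover, any lower value would stand out in this way, and the usual chance of about 1 in 20 groups does not apply. In that sample, a gap between peaks lay at the start site of Dlx6.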

How the results depend on the processing

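The lists hold peaks only and differ in length, and cover was not adjusted for the reads of each sample, which the paper reports. The number of Dlx genes with peaks, of peaks and of shared regions stayed within 1.5 times the reported values under the alternatives for distance, score, overlap, list length and transcripts. The shared regions reached the edge of this bound, with 4 in place of 6 when an overlap had to span 50% of each peak. The log2 ratio of the region upstream of Dlx4 moved to -0.41 with ranks. The number of genes with changed cover between EB and ESC, 518, became 283 for gene bodies, 0 within 2 kb of start sites, 232 with an equal number of strongest peaks, 0 with no filter on low values and 0 with the line as a block, and 307 with the stronger 50% of each list, an alternative chosen after seeing the data, as was weighting by score (448). With limma it was 588. Leaving out 1 replicate at a time gave 0 to 710, with 0 when KO ESC replicate 1, either WT rescue ESC replicate or either K116A rescue ESC replicate was left out. The cause was not tested, except that fewer samples or a line block allow fewer arrangements and no filter adds genes to the adjustment. With the replicate block it was 867. The labels do not say what a shared replicate number marks. The differences between replicates 1 and 2 correlated across genes with r of 0.13 to 0.80 over the 15 pairs of groups, a hint from the data that the numbers move together, and the block changed the call of no Dlx gene. No Dlx gene passed under any alternative, in either comparison.

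Of the differences between WT rescue and the other lines, which did not pass, that of Dlx6 turned from 0.51 to -1.16 points for the gene body and to -0.98 (without WT rescue ESC replicate 2, or either WT rescue EB replicate), -0.50, -0.25, -0.012 and -0.055 (without KO ESC replicate 1, K116A rescue ESC replicates 1 and 2, and KO EB replicate 1). That of Dlx5 turned from -3.26 to 1.58 within 2 kb of the start site and 4.94 with an equal number of peaks, and to 6.26 on the scale weighted by score. Without WT rescue ESC replicate 1, it became 7.14 for Dlx5, 0.70 for Dlx1 and 3.56 for Dlx4, and the difference of Dlx4 between EB and ESC became -1.21. Leaving out 1 sample at a time, the ranges were -1.21 to 9.56 for this difference of Dlx4 and, for WT rescue against the others, -10.45 to 0.70 for Dlx1, -11.49 to 3.56 for Dlx4, -7.31 to 7.14 for Dlx5 and -0.98 to 4.98 for Dlx6. Cover weighted by fold enrichment and a threshold on q were not run, since the files hold neither.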
